A study of Mus musculus with 4 samples.

Results

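Some transcripts of the mouse brain carried exactly the same ribosome footprint counts in their region b, library by library, and yet different counts in their region a. Region a of 2604 transcripts, in 1082 such sets, is described here, of 23175 transcripts with a count in any region. The members were chosen from the counts themselves. Of 17836 transcripts with at least 50 region b counts summed over the 4 libraries, 4634 had a region b that matched that of some other transcript in each of the 4 libraries, and they formed 1983 sets. In 319 of these sets region a was identical too, and in 582 it differed but stayed under 50 summed counts in every transcript. The remaining 1082 sets, whose highest member reached 50 summed region a counts, are the subject of this text. The selection used region a and region b counts summed over all libraries, so the levels below are a description, and only the comparison between cell types was tested.

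The libraries hold ribosome-protected RNA fragments from the brains of mice of strain C57BL/6J, taken on day 21 after birth. In Aldh1l1::eGFP-RpL10a mice a ribosomal protein fused to green fluorescent protein is made under the Aldh1l1 promoter, labelled astrocyte, and in Snap25::eGFP-RpL10a mice under the Snap25 promoter, labelled neuron. Tagged ribosomes were pulled down with antibodies to the fluorescent protein and the RNA outside them was digested on the beads, so that each fragment marks the place of a ribosome. Each cell type has 2 libraries from replicate experiments, and each library pooled 2 brains, so a p-value measures the spread between pools. Library totals ran from 7210269 to 12833187 counts. The files name regions by an Ensembl transcript ID and a letter, a to d, without saying what the letters mean or how long the regions are. They do not pair the IDs with genes, and no table at hand holds transcript IDs, so the labels were not checked against marker genes and no sequence is shown. Sets are therefore named by their rank in region a counts, set 1 being the largest.

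As background, a gene often gives rise to several transcripts through alternative promoters or splicing, and these can share their coding sequence while their leaders, the stretch before the start codon, differ. Ribosomes are found mostly on coding sequence but also on leaders, where short upstream reading frames can be translated and can lower the translation of the main frame. A footprint is a short fragment, and one that lies in sequence common to several transcripts cannot be assigned to one of them. Counts of transcripts in a set are therefore not independent of each other, and the same fragment may be counted in several members. The same region a counts can also recur in another set, as in sets 27 and 28. Not all sets are therefore separate units in the counts and tests below.

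Most sets were pairs. Of the 1082 sets, 780 had 2 members, 206 had 3 and 96 had more than 3, up to 9. Some members of a set had the same region a counts in all libraries as well. Counted set by set, the 2604 members held 2553 distinct region a profiles, a profile being the 4 library counts of a region. A profile that recurs in another set, as in sets 27 and 28, is counted again. In 809 sets there were 2 profiles, in 190 there were 3 and in 83 there were more, up to 7. The members took 24.3% and 24.1% of all region a counts in astrocyte libraries 1 and 2, and 24.3% and 24.8% in neuron libraries 1 and 2. With only the highest profile of each set counted, these shares were 13.5%, 13.5%, 13.5% and 13.6%. Profiles that recur in another set still enter these shares more than once. Member sets held nearly the same part of region a in all 4 libraries.

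Region a differed within sets by anything from single counts to all counts. The lowest profile of a set had a median of 61.3% of the summed counts of the highest, with quartiles at 27.7% and 86.9%. In 28 sets the lowest profile had no region a count at all. In 101 further sets it had under 10% of the highest, in 309 it had 10% to under 50%, in 421 it had 50% to under 90%, and in 223 it had at least 90%. The summed counts were at most 3 apart in 84 sets, 4 of which had equal sums made of different library counts. At the other end, 86 sets had a highest profile at least 10 times the lowest in every library. As the order was taken from the summed counts, the lowest profile lay at or below the highest in each library in 985 sets. It exceeded the highest in some library in 97 sets, in 71 of which it had at least 90% of the summed counts of the highest.

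**Figure D1:**
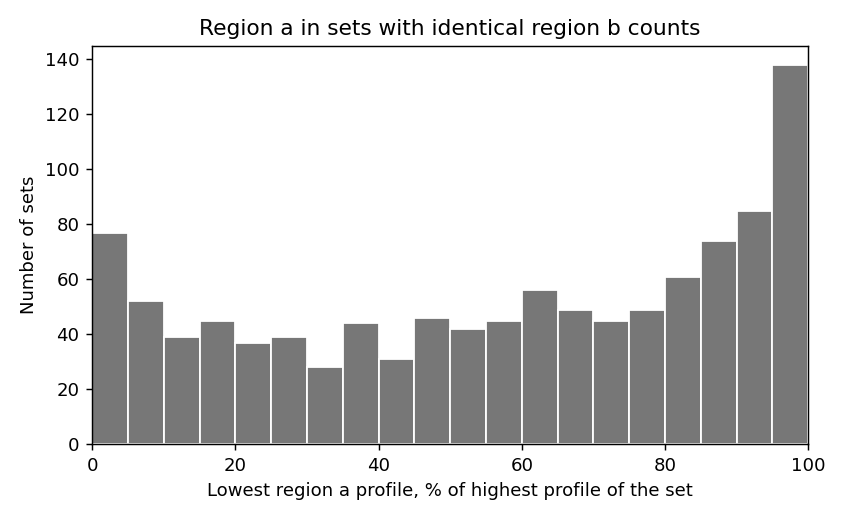
Number of sets (vertical axis) by the lowest region a profile as a percentage of the highest profile of the set, counts summed over 4 libraries (horizontal axis, bars 5 percentage points wide), for 1082 sets. The sets spread over the whole range around a median of 61.3%, and 223 of them lie at 90% or above.

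Relative to the region b counts that all members of a set share, the highest profile had a median of 15.4% (quartiles 7.57% and 30.4%) and the lowest a median of 6.78% (quartiles 2.82% and 15.6%). The choice of sets with at least 50 region a counts favours high percentages. In 30 sets the highest profile exceeded region b in every library, and in 10 of these the lowest profile did so too. These are ratios of counts, not of densities, since the lengths of the regions are not given.

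The rule did not use regions c and d. All members shared their region c counts in 1052 of the 1082 sets (97.2%) and their region d counts in 793 (73.3%). Many of these counts were 0. Among the 539 sets with any region c count, 509 shared it, and among the 788 sets with any region d count, 499 did. Of the 15 sets in which a member reached 50 region c counts, 13 shared all of them, against 11 of the 29 sets in which a member reached 50 region d counts. Region c was thus mostly held in common like region b, and region d in fewer sets.

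The 8 largest sets show the range of patterns. Set 1 consists of ENSMUST00000174710 and ENSMUST00000174191, which shared 17533 and 20795 region b counts in astrocyte 1 and 2, against 3531 and 3508 in neuron 1 and 2. Region a of ENSMUST00000174710 had 4934, 5790, 1016 and 969 counts in this order of libraries. Region a of ENSMUST00000174191 had 2715, 3078, 731 and 645 in the same order. Both members were far higher in the astrocyte libraries, as was their region b, and the groups did not overlap. In such pooled tissue, fewer cells of a type and fewer footprints per cell cannot be told apart. Other causes of this difference were not tested. The second transcript had 55.0% and 53.2% of the region a counts of the first in the astrocyte libraries, against 71.9% and 66.6% in the neuron libraries, so its part of the set was larger in both neuron libraries.

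In set 2 one member carried most of region a. It had 785 and 992 region a counts in astrocyte 1 and 2, against 1486 and 2284 in neuron 1 and 2, where the other member had 110, 104, 145 and 278. The lower profile lay at 14.0%, 10.5%, 9.76% and 12.2% of the higher, with overlap between the cell types. Set 5 was more lopsided and its higher profile outweighed region b. That profile had 984, 1225, 1003 and 1030 counts, which was 117% to 138% of region b, and the lower one had 70, 70, 69 and 68. The lower profile stayed at 5.71% to 7.11% of the higher in all 4 libraries. In set 6, with 3 members, nearly all region a counts belonged to one transcript, with 3994 summed counts against 24 and 3 for the others. Its lowest profile thus had 0.0751% of the highest, the smallest nonzero percentage among sets with at least 500 counts in the higher profile. Sets 73 and 80 followed with 0.342% and 0.964%.

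Set 4 had nearly equal members. Its 3 transcripts shared the largest region b of all sets, 73428 summed counts, and had 4875, 4873 and 4798 region a counts. The lowest lay at 98.5%, 98.6%, 98.0% and 97.8% of the highest in astrocyte 1 and 2 and neuron 1 and 2, a gap between the cell types of under 1 percentage point. Sets 3, 7 and 8 lay between these extremes. In set 3 the lower profile had 38.0% and 31.4% of the higher in the astrocyte libraries, against 43.0% and 46.5% in the neuron libraries, without overlap. In set 7 it had 54.4% and 50.1% against 50.2% and 47.6%, where the values overlapped. In set 8 it had 66.4% and 68.7% against 70.9% and 70.1%, close together but without overlap.

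**Figure D2:**
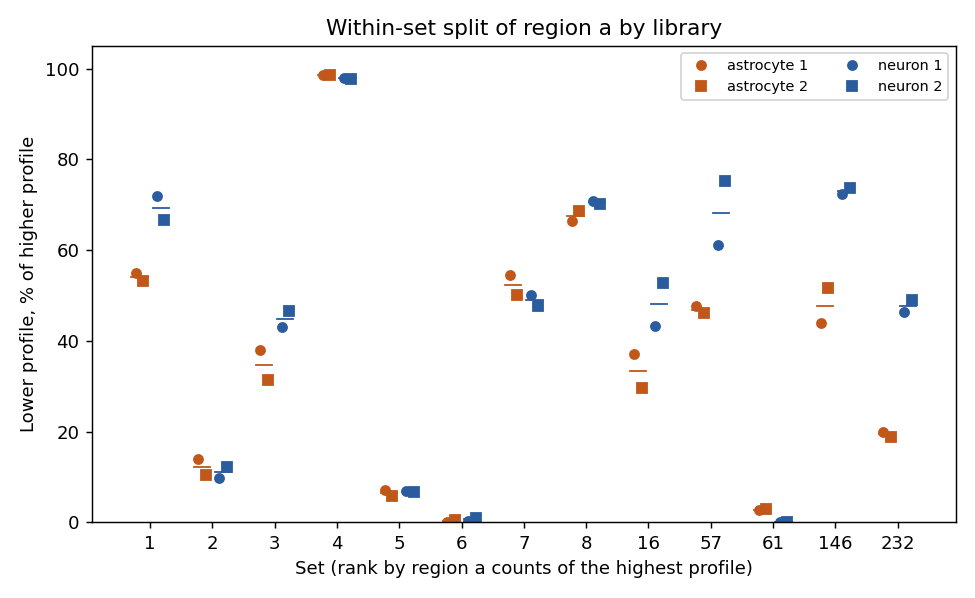
Lower region a profile as a percentage of the higher profile of the same set (vertical axis) in each library, for the 8 largest sets and 5 others described in the text (horizontal axis, named by rank). Points are libraries and short lines are means of 2 libraries. Sets 2, 5, 6 and 7 overlap between cell types, while in sets 1, 146 and 232 both neuron libraries lie above both astrocyte libraries.

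In 4 sets there were 7 profiles, and the 3 largest of these had 7 members each. In set 60 the summed region a counts were 1000, 987, 280, 247, 243, 223 and 57, where the members shared only 215 region b counts. They fell into a pair near 1000, a group of 4 between 223 and 280 and a single low one. In set 255 the 7 profiles had 354, 346, 310, 300, 200, 192 and 156 counts, with a smaller step between 300 and 200. In set 519 they ran from 164 down to 103, without such gaps. At the minimum of 50 counts, the 2 sets just inside had 50 counts in the higher and 37 and 21 in the lower profile, and the 2 just outside had 49 in the higher and 42 and 46 in the lower.

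The comparison between cell types asked whether members of a set divide their region a counts differently in neurons and astrocytes. The lower of the profiles with at least 10 summed counts was set against the highest, and the change of their ratio was tested with the edgeR quasi-likelihood test over all 1037 sets of the table that passed a filter on low counts. Of the 1082 member sets 972 were tested. In 61 there was no lower profile with 10 counts and in 49 a library had too few. A difference of the split between the cell types was called in 0 of 972 sets at an edgeR adjusted p under 0.05, beside a background of 0.0% of all sets tested. The lowest adjusted p was 0.361. At an unadjusted p under 0.05 there were 29 sets, 2.98%, beside 2.99% of all sets tested, 20 with a lower profile that was relatively higher in neuron and 9 in astrocyte samples. DESeq2 also called 0 sets, with 5 at an unadjusted p under 0.05. Under no change, about 5% of sets would reach an unadjusted p under 0.05, and both tests gave fewer. On counts simulated without shared fragments, the edgeR test gave 3.94% of unchanged sets. Both tests take the profiles as separate counts, although a fragment may be counted in each. Whether this made them too strict was not tested, so 0 calls do not show that the split was unchanged.

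The changes of this ratio were small where counts were high. Profiles made mostly of the same fragments can change little, so small changes do not show an equal division. In nearly equal set 4 the log2 change was -0.01, and -0.56 (fitted SE 0.283, without the counting error) for the lower profile against the excess of the higher. In lopsided set 5 both were 0.09. Neither set passed either test. The median log2 change of the ratio of lower to higher profile, neuron minus astrocyte, was 0.02, with quartiles at -0.11 and 0.20, and 543 of the 972 changes lay above 0. Among the 74 sets with at least 500 counts in the lower profile, the changes lay between -0.18 and 0.58, with quartiles at -0.03 and 0.07. Changes of more than 2-fold were found in 45 sets, in 35 of which the lower profile had under 50 counts over all libraries. For 283 of the 972 sets (29.1%) the 95% interval lay within 2-fold either way, and for the other 689 it reached 2-fold or more. The standard error behind these intervals is the larger of the fitted one and the counting error, with members taken as independent. Where fragments are counted in both profiles, this counting error is too large and the interval too wide. For most sets the interval formed in this way held changes of 2-fold. How many would do so with shared fragments taken into account was not tested.

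**Figure D3:**
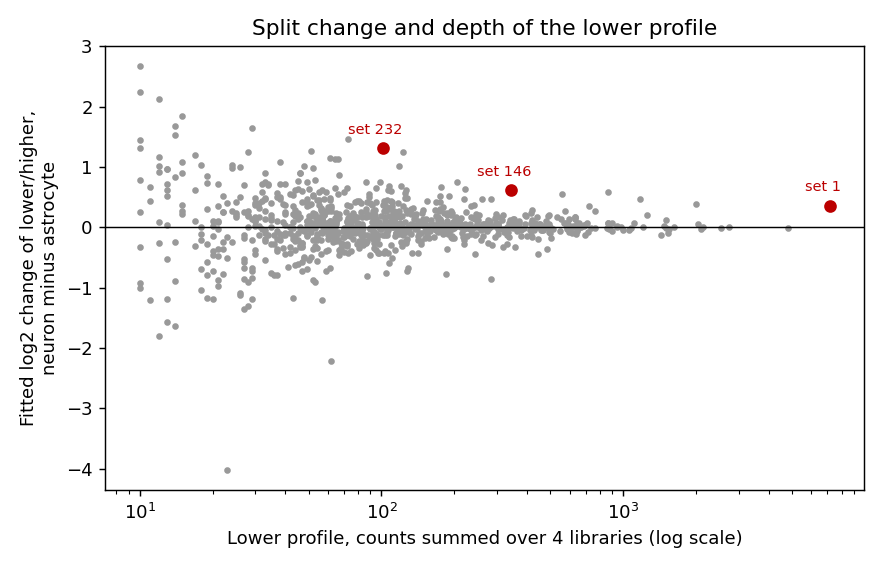
Fitted log2 change of the ratio of lower to higher profile, neuron minus astrocyte (vertical axis), against the counts of the lower profile summed over 4 libraries (horizontal axis, log scale), for the 972 sets tested, each point a set. Points narrow toward 0 with depth, and set 1, at the far right, lies at 0.36. The lowest point is set 61, whose lower profile had no neuron count, so that its fitted value depends on the prior count and measures no size.

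The split kept its order from library to library. Over the 368 sets with at least 20 counts of the lower profile in every library, the log2 ratio of lower to higher profile correlated across sets with r = 0.942 between the astrocyte libraries, r = 0.932 between the neuron libraries and r = 0.918 to 0.932 between cell types. Sets share libraries and differ in depth, so these values are a description. Sets also differ widely in this ratio, and the order of the profiles was taken from these same libraries. Both favour a high r in every pairing. The SD of the differences was 0.217 between the astrocyte libraries, 0.231 between the neuron libraries and 0.235 to 0.252 between a neuron and an astrocyte library. Libraries of different cell types thus differed little more than replicates did. The neuron minus astrocyte changes taken from 2 separate pairs of libraries correlated across the 368 sets with r = 0.156, or 0.153 with the pairs formed the other way.

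**Figure D4:**
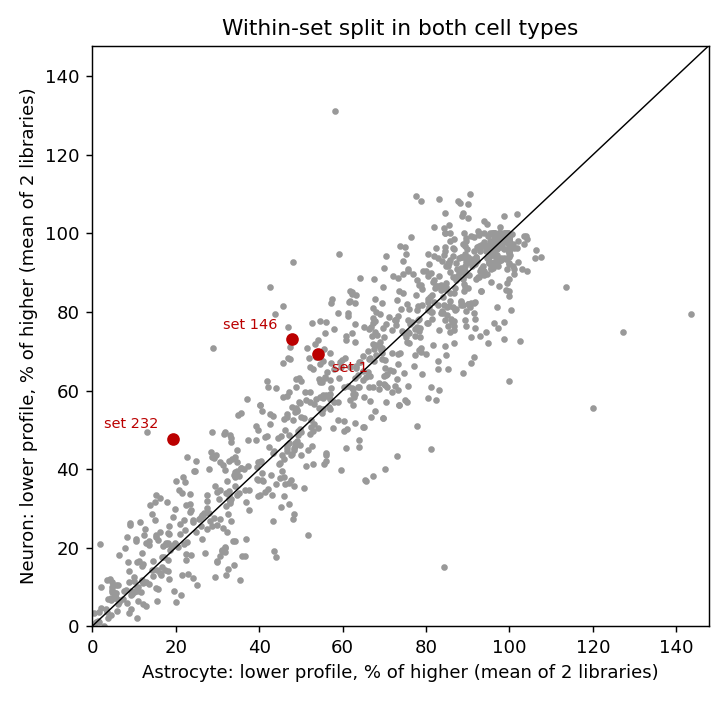
Lower profile as a percentage of the higher profile in astrocyte (horizontal axis) and neuron samples (vertical axis), means of 2 libraries each, for the 972 sets tested, with the line of equality. Sets gather along the line, and sets 1, 146 and 232, with the lowest unadjusted p, lie above it.

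The 3 sets with the lowest unadjusted p all had a lower profile that was relatively higher in neuron samples. In set 232 the higher profile had 135 and 149 counts in astrocyte 1 and 2, against 41 and 55 in neuron 1 and 2, where the lower had 27, 28, 19 and 27. The lower profile thus measured 19.4% ± 0.854 of the higher in astrocyte samples, against 47.7% ± 1.94 in neuron samples (SD, n = 2 each), a log2 change of 1.31 (SE 0.335, edgeR adjusted p = 0.361). The higher profile had 19.1% and 21.1% of region b in astrocyte 1 and 2, against 10.5% and 8.10% in neuron 1 and 2, a log2 change that did not pass the test of region a against region b (-1.13, edgeR adjusted p = 0.0528). The lower profile had 3.81% to 4.88% of region b in the 4 libraries (0.16, edgeR adjusted p = 0.924). In set 1 the values were 54.1% ± 1.32 and 69.3% ± 3.81 (SD, n = 2 each), a log2 change of 0.36 (SE 0.0558, edgeR adjusted p = 0.959). In contrast to set 232 the higher profile held 27.6% to 28.8% of region b in every library, and the lower one had 15.5% and 14.8% in the astrocyte libraries, against 20.7% and 18.4% in the neuron libraries.

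Set 146 had 4 transcripts, of which 3 had nearly equal counts. Its highest profile had 132, 122, 116 and 190 counts and its lowest 58, 63, 84 and 140. The lowest measured 47.8% ± 5.44 of the highest in astrocyte samples, against 73.0% ± 0.898 in neuron samples (SD, n = 2 each), a log2 change of 0.62 (SE 0.204, edgeR adjusted p = 0.959). None of the 3 sets passed the test with all sets considered.

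Because a fragment may be counted in both members of a set, the lower profile was also tested against the excess of the higher over the lower profile, in the 874 member sets without a negative excess. Of all 923 sets tested so, most were these 874. Only set 1 passed, 1 of the 874, and it was itself the whole background of 0.108%. Its excess was 2219 and 2712 counts in the astrocyte libraries, against 285 and 324 in the neuron libraries, and the ratio of lower profile to excess was higher in neuron samples by a log2 change of 0.94 (SE 0.149, edgeR adjusted p = 0.0097). Without astrocyte 1, astrocyte 2 or neuron 1 the log2 change was 0.99, 0.88 and 0.76 and the adjusted p rose to 0.756, 0.949 and 0.0869, and without neuron 2 they were 1.12 and 0.0012. At an unadjusted p under 0.05 there were 49 member sets, 5.61%, beside 5.31% of all sets tested so.

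Over all sets with a lower profile of at least 10 counts, 1021 in number, the lower profiles together held 55.0% and 54.2% of the counts of the higher profiles in astrocyte 1 and 2, against 56.4% and 57.4% in neuron 1 and 2. The means were 54.6% ± 0.517 and 56.9% ± 0.73 (SD, n = 2 each), without overlap. Each library weights a set by its own counts here, so a pooled gap need not be a change of split within sets. With equal set weights, astrocyte minus neuron was -1.75 percentage points. The exact two-sided permutation p was 0.33, the smallest that 2 against 2 libraries can give. The medians over sets were 66.7% and 64.0% in astrocyte and 65.0% and 68.0% in neuron libraries and overlapped. In single sets, both neuron libraries lay above both astrocyte libraries in 191 of 972 and below them in 135. The backgrounds over all sets tested were 19.4% and 14.3%, and in 646 sets the cell types overlapped. Most sets in these backgrounds are the 972 themselves, so the members could differ little from them.

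Region a relative to region b was compared between the cell types in an edgeR quasi-likelihood fit over all 11565 transcripts with enough counts, 2425 of them members. It changed in 11 members, 0.454% of those tested, beside a background of 0.562% of all transcripts tested. All 11 had a lower ratio in neuron samples, beside 0.553% of all transcripts in that direction and 0.00865% in the other. The median log2 change was -0.20 over the members and -0.21 over all transcripts tested, and 69.4% and 67.7% of the changes lay below 0. The members thus shared the general shift of region a. With each region scaled to its own library total, which takes out this shift, the median over the members was 0.05 and 1 call was left, in set 622. DESeq2 called 0 members, with 61 at an unadjusted p under 0.05. Leaving out astrocyte 1 gave 4 calls, astrocyte 2 gave 0 (114 at an unadjusted p under 0.05), neuron 1 gave 26 and neuron 2 gave 3, so each single library moved the count.

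The profiles of a set mostly had the same sign in this ratio, in which they share region b and may share region a fragments. In 915 of the sets tested for the split, both the highest and the lower profile were tested, and both had a lower ratio in neuron samples in 543, both a higher one in 193 and opposite signs in 179. The medians were -0.20 for the higher and -0.16 for the lower profiles. The 11 called members lay in 7 sets. In sets 138, 178 and 192 both profiles were called. The profiles of set 138 had 9.37% ± 0.316 and 9.25% ± 0.363 of region b in astrocyte samples, against 4.27% ± 0.121 and 4.45% ± 0.469 in neuron samples (SD, n = 2 each), log2 changes of -1.13 and -1.06 (SE 0.251 for both, edgeR adjusted p = 0.0183 and 0.0308). The higher profile of set 178 had 91, 126, 80 and 181 counts beside 623, 696, 878 and 4694 region b counts, or 14.6%, 18.1%, 9.11% and 3.86% of region b. The lower profile had 5.94%, 7.04%, 3.08% and 1.92%. Both neuron libraries lay below both astrocyte libraries in either profile, and neuron 2, whose region b was far above that of neuron 1, lay lowest. The log2 changes were -1.55 and -1.53 (edgeR adjusted p = 0.00352 and 0.00944), and without neuron 2 they were -0.84 and -1.08 (adjusted p = 0.316 and 0.339). The higher profile of set 192 had 148, 254, 19 and 28 counts, or 17.1% ± 5.59 of region b in astrocyte samples, against 5.29% ± 0.658 in neuron samples (SD, n = 2 each), with log2 changes of -1.68 and -1.56 (edgeR adjusted p = 0.00512 and 0.0115). In set 335 the higher profile, with 90, 96, 32 and 52 counts, or 28.8%, 29.6%, 11.0% and 9.08% of region b, was called at -1.57 (edgeR adjusted p = 0.00631), and the lower had too few counts to be tested. None of the calls in sets 138, 178, 192 and 335 was left with DESeq2 or with each region scaled to its own total. Most or all of these calls were also lost without astrocyte 1, astrocyte 2 or neuron 2. The log2 changes themselves stayed negative under these settings, in set 138 at -1.17 to -0.82 and in set 335 at -1.59 to -1.32.

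**Figure D5:**
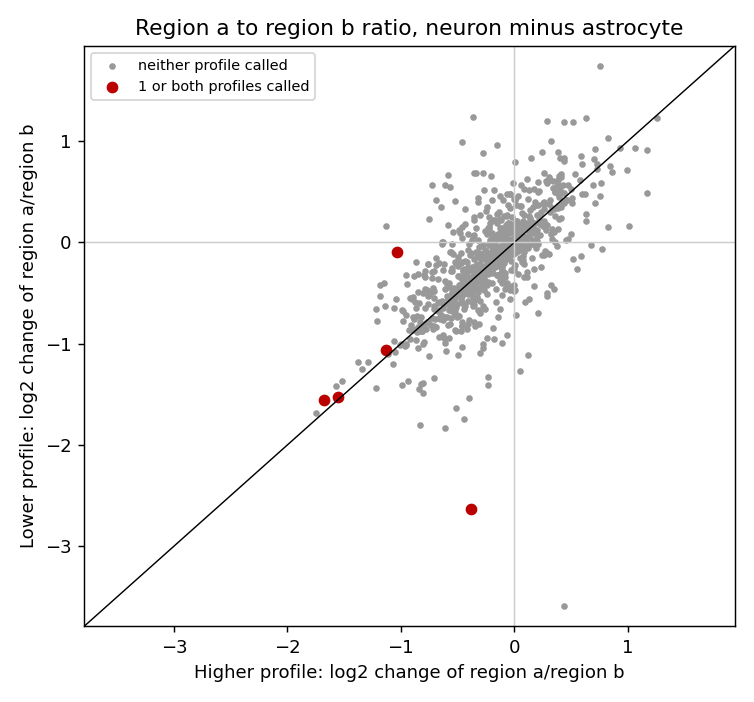
Log2 change of region a relative to region b, neuron minus astrocyte, for the higher profile (horizontal axis) and the lower profile (vertical axis) of the 915 sets in which the split and both ratios were tested, with the line of equality. Most points lie near the line and below 0 on both axes; of the 5 sets with a call, 3 lie on the line and 2 away from it.

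In 3 sets a member was called and another tested member was not. In set 622 the call was ENSMUST00000076715, whose region a had 22 and 28 counts in astrocyte 1 and 2, against 2 and 10 in neuron 1 and 2, or 3.04% ± 0.376 and 0.428% ± 0.194 of region b (SD, n = 2 each). Its log2 change was -2.63 (SE 0.476, edgeR adjusted p = 0.00256), and the neuron libraries lay below both astrocyte libraries. The other member had 34, 27, 22 and 47 counts in the same order and a log2 change of -0.38 (SE 0.347, edgeR adjusted p = 0.736). The test of the split itself, lower against higher profile, gave a log2 change of -2.21 for this set (SE 0.529, edgeR adjusted p = 1), so the members were not shown to differ. The log2 change of ENSMUST00000076715 was -2.69 with DESeq2, -2.51 without astrocyte 2 and -3.31 without neuron 2, of similar or larger size, but did not pass the threshold there (adjusted p = 0.0655, 0.402 and 0.0548).

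In set 23 the call was ENSMUST00000105364, with 517 and 600 region a counts in astrocyte 1 and 2, against 401 and 301 in neuron 1 and 2. These were 36.4% and 33.4% of region b against 26.9% and 10.7%, so that neuron 2 lay far below the other 3 libraries. Its log2 change of -1.03 (SE 0.26, edgeR adjusted p = 0.0467) was -0.37 without neuron 2 (adjusted p = 0.596), and the call was also lost without either astrocyte library, with DESeq2 and with each region scaled to its own total. The other member of the set had 37, 15, 20 and 46 counts and a log2 change of -0.10 (edgeR adjusted p = 0.957). In set 722, with 3 members, 2 were called, at -2.13 and -1.86, and the third had -1.89 (edgeR adjusted p = 0.103). The highest profile of this set had 26 and 50 counts in the astrocyte and 4 and 24 in the neuron libraries, and its replicates differed widely. Without neuron 1 the log2 changes of the called members were -1.61 and -1.37 and neither was called (adjusted p = 0.0861 and 0.223), and without astrocyte 2 they were -1.61 and -1.18 (adjusted p = 0.611 and 0.796). With DESeq2 they were -2.25 and -1.95, and with each region scaled to its own total -1.89 and -1.62, close to the values above but not past the threshold.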

How the data were processed

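Footprints from 4 libraries, 2 per cell type, were analysed. The deposited values are whole-number counts per transcript region, and a region without a line was read as 0. The submitters' processing notes name, without role or order, edgeR, bedtools, STAR 2.3.1z8, Bowtie2 2.2.2, FastQC 0.11.2 and Trimmomatic 0.32. What the region letters mean, which build and annotation were used, and how strand and fragments with several possible transcripts were handled is not given in the sources used here.

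Tests used edgeR 4.0.16 in R 4.3.3, with DESeq2 1.42.0 as an alternative. Each model held library terms, the region or profile and its interaction with cell type, with library totals as offsets and Benjamini-Hochberg adjustment over all items tested. The region a to region b ratio was tested at a mean of at least 5 and 10 counts. The split was tested over all sets with at least 20 region b counts, 10 counts of both profiles together in every library and 10 summed counts of the lower profile. An SE was taken from the log2 change and F. For the split of lower against higher profile it is no smaller than the counting error of the summed counts. For the lower profile against the excess no such minimum was set, so that SE can lie below the counting error. The ratio and split tests were run on simulated counts with 200 changes of 4-fold, of which 81.5% and 88.5% were recovered. Of the calls, 2.4% and 2.75% were false. The simulated counts were drawn independently, without shared fragments or smaller changes. They do not show how the split test behaves on sets that share fragments.

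The members, lists and tests were chosen with earlier results of these data known. Sets named are the 8 largest, the 3 with the lowest p of the split, those with a ratio called in some members only, the 3 with the lowest nonzero percentage at 500 or more counts, the 3 with the most profiles and those beside the minimum. Sets 138, 178, 192 and 335, and those under the other observations, were chosen after their values were seen. As no IDs could be paired with genes, 4 IDs are printed. The labels number the replicates 1 and 2 in each cell type without pairing them.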

Additional observations from a re-analysis of the deposited data

How the results depend on the processing

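Alternatives are the tool, the filters, the scaling, the replicate block, single libraries, the minima and the definition of a set. The number of sets, 1082, was 744 to 1398 under other minima and 889 with regions c and d shared too. The split had 0 calls under every alternative except the lower profile against the excess, which gave 1 call and a median log2 change of 0.11. With 1 library left out, the remaining one being taken to vary like the other pair, calls of the split stayed at 0 (9 to 23 at an unadjusted p under 0.05) and its median, 0.02, lay between 0.00742 and 0.03. The replicate block gave 0 split calls and 12 ratio calls in members, and libraries of equal number deviated from their group means with r = 0.00262 for the split and -0.0267 for the ratio, so the numbers were not taken as pairs. The 11 ratio calls were 0 with DESeq2, 30 where both regions had to reach a mean of 20, which tests fewer transcripts, and 1 with each region scaled to its own total, which by its construction turned the median of -0.20 to 0.0498. With 1 library left out they ranged from 0 to 26, and the median from -0.219 to -0.16. The pooled difference of the lower profiles, -2.33 percentage points for astrocyte minus neuron, was -1.18 as a median over sets and -2.85 to -1.82 with 1 library left out. The split of set 2, -0.10, was 0.0962 without astrocyte 1 and 0.0145 without neuron 1, in a range from -0.322 to 0.0962, and that of set 5, 0.09, was -0.0773 without astrocyte 2, in a range up to 0.238. Except where a construction is named, the cause was not tested. TMM factors gave 11 ratio calls and a median of -0.19. DESeq2 size factors in place of library totals were not run, since the library term takes up any scaling shared by both regions. Depth limits the split too, as the median set tested had 93 counts in its lower profile.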

Other observations

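Further sets stand out by their values. Of the 74 sets with at least 500 counts in the lower profile, 2 had a log2 change of the split over 0.5. In set 16 the lower profile had 204 and 208 counts in astrocyte 1 and 2, against 148 and 307 in neuron 1 and 2, where the higher had 550, 704, 342 and 582, so that it held 37.1% and 29.5% against 43.3% and 52.7%. In set 57 the lower profile held 47.6% and 46.1% of the higher in the astrocyte and 61.1% and 75.3% in the neuron libraries. In both sets the neuron libraries lay above the astrocyte libraries, with log2 changes of 0.58 (SE 0.16) and 0.56 (SE 0.167) and an edgeR adjusted p = 1 for both. The highest profile of set 57 had 8.58% and 7.84% of region b in the astrocyte and 4.61% and 4.48% in the neuron libraries, and that of set 16 had 25.5% and 27.7% against 15.5% and 15.9%.

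Of the 972 sets tested, set 61 was the only one in which the lower profile had at least 10 counts in both libraries of one cell type and none in the other. It had 10 and 13 counts in astrocyte 1 and 2 and 0 in both neuron libraries, where the higher profile had 376, 457, 91 and 74. The lower profile was 2.76% of the higher over the astrocyte libraries. With 3 counts as the limit of a 0 in the neuron libraries together, a share of up to 1.82% of the 165 neuron counts of the higher profile was allowed. The split had an edgeR unadjusted p = 0.00462 and did not pass after adjustment (edgeR adjusted p = 0.959), in a set picked for its 0 counts. Its interval included no change, but rests on a counting error with a small value put in place of 0. Its higher profile exceeded region b in every library, at 185% to 414%.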
